A study of Canis lupus familiaris with 16 samples.

Results

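The neuronal and synaptic genes of nerve sheath tumors described here are SEZ6L2, UNC79, NRXN2, GRIN1, PTPRN2, XKR7 and BMX, measured by RNA-seq in canine soft tissue sarcomas. They were selected on measured read counts of these same tumors, because the study names them in pairs of markers of peripheral nerve sheath tumors (PNST) or lists them among the top genes of that type. XKR7 and BMX are among them as markers named in pairs, with no neuronal role described here. The higher level of the 7 genes in PNST is therefore how they were chosen and not a finding, and that contrast is given below as a description only. All 7 were among the 41818 genes counted. Genes had to reach 10 counts in 4 or more of 16 tumors to be tested, which 15408 genes and 5 of the 7 did, while XKR7 and BMX reached 10 counts in only 3 tumors each and are described by their counts.

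RNA came from formalin-fixed, paraffin-embedded sections of 16 tumors from dogs, with no normal tissue among them, and was counted per gene after sequencing. Tumors were grouped by the molecular identity in the labels, which the study set from the expression of the same tumors. Total counts on genes ranged from 507728 in S1-12 to 4311876 in S1-03, so that 1 count was worth most in S1-12. Tumors with S1 names had 3 sequencing runs each and those with S2 names 1 run, so this prefix was treated as a stand-in for batch.

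The 4 fibrosarcomas (FS) were S1-02, S1-11, S1-12 and S2-06, of grades 1 to 3, from dogs aged 9 to 13 years. The 6 PNST were S1-03, S1-04, S1-05, S1-09, S1-10 and S2-07, of grades 1 to 2, from dogs aged 8 to 13 years. The 6 perivascular wall tumors (PWT) were S1-07, S2-03, S2-04, S2-08, S2-09 and S2-11, of grades 1 to 3, from dogs aged 2 to 14 years. By histology, S1-10 was a PWT and S2-08 an FS. S1-04 and S1-05 carry identical labels and may come from 1 dog. The S1 prefix was held by 3 of 4 FS, 5 of 6 PNST and 1 of 6 PWT.

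Peripheral nerve sheath tumors are thought to arise from Schwann cells and other cells of the nerve sheath, which wrap axons and come from the neural crest. Neurexins, glutamate receptors, leak channel subunits and dense-core vesicle proteins are best known from neurons, where they serve contact between cells, excitability and regulated release. The repressor REST holds many such genes low in cells outside the nervous system.

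SEZ6L2 encodes a neuronal membrane protein of the seizure-related 6 family. Its level, as CPM (counts scaled to library size with TMM factors), was 1.76 in S1-02, 1.08 in S1-11, 1.81 in S1-12 and 1.86 in S2-06, the 4 FS. In the 6 PNST it ranged from 129.7 to 273.5 CPM with a median of 197.7, and in the 6 PWT from 11.1 to 75.9 CPM with a median of 32.0. The 3 types did not overlap, with FS lowest, PWT between and PNST highest. Within PNST, S1-09 was highest and S1-03 and S2-07 were lowest, while in PWT S1-07 and S2-09 stood above the other 4. As a description, the log2 fold change of PNST was 6.83 (SE 0.646) against FS and 2.27 (SE 0.398) against PWT. In bulk tissue such as this, fewer cells of a type and less RNA per cell cannot be told apart.

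NRXN2 encodes a presynaptic adhesion molecule that binds neuroligins across the synapse. Between 6 and 18 counts were found in each PNST, giving 1.97 to 6.90 CPM with a median of 3.30. FS held 1 count in S1-02, 3 in S1-11, 0 in S1-12 and 1 in S2-06, and PWT held 4 counts in all, with 3 of 6 tumors at 0. Every PNST was above the highest other tumor, S1-11 at 1.62 CPM, but the 95% counting interval of S1-11 reached 4.73 CPM and took in 4 of the 6 PNST values. The description is a log2 fold change of 2.49 (SE 0.761) against FS and 3.10 (SE 0.707) against PWT.

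UNC79 encodes a subunit of the complex around the sodium leak channel NALCN. FS tumors held 1.76 (S1-02), 1.08 (S1-11), 1.81 (S1-12) and 0.465 CPM (S2-06). PWT ranged from 0.539 to 8.26 CPM with a median of 6.55, and PNST from 11.3 to 117.2 CPM with a median of 39.9. All 6 PNST were thus above all 10 other tumors, but they spread over a 10-fold range, with S1-09 and S2-07 far above S1-03 and S1-05. The highest other tumor, S2-04, held only 6 counts. Its 95% counting interval of 3.03 to 18.0 CPM took in the values of S1-03 and S1-05. The log2 fold change of PNST was 5.42 (SE 0.919) against FS and 3.48 (SE 0.656) against PWT.

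GRIN1 encodes the subunit found in every NMDA-type glutamate receptor. It was at 0.702 CPM in S1-02, 1.08 in S1-11, 1.81 in S1-12 and 0 in S2-06. PNST ranged from 1.11 to 18.7 CPM (median 8.73) and PWT from 0 to 3.78 CPM (median 3.31). The groups overlapped here, because S2-07 with 2 counts lay below 4 of the 6 PWT, whereas the other 5 PNST lay above every FS and PWT. As a log2 fold change, PNST differed by 3.67 (SE 0.885) from FS and by 1.92 (SE 0.638) from PWT.

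PTPRN2 encodes a phosphatase-like membrane protein of dense-core vesicles. Counts gave 1.76 CPM in S1-02, 1.08 in S1-11, 0 in S1-12 and 2.32 in S2-06 among FS. The range was 5.17 to 16.2 CPM in PWT (median 6.63) and 18.3 to 67.4 CPM in PNST (median 43.1). As with SEZ6L2, the values of the 3 types did not overlap, S1-09 was the highest PNST, and S1-03 and S2-07 were the lowest. The 95% counting intervals of FS and PWT did overlap. They reached 6.66 CPM in S1-12 and 5.42 CPM in S2-06, and began at 2.08 CPM in S2-11, which held 7 counts. How many of all genes separate the types in this way was not counted. The gap between the lowest PNST and the highest PWT was small, 18.3 CPM in S1-03 against 16.2 CPM in S2-03. The descriptive log2 fold change was 4.70 (SE 0.548) against FS and 2.20 (SE 0.381) against PWT.

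XKR7 belongs to the XK family of membrane proteins, some of which scramble lipids. Its counts were 0 in all 4 FS, 1 in S1-07, 1 in S2-08 and 0 in the other 4 PWT. PNST held 2 counts in S1-03 and 6 to 17 in the other 5, or 0.563 to 5.38 CPM with a median of 3.95. Pooled over each group, the level in PNST was at least 9.00-fold higher than in FS, taking 3 counts over the group as the floor. Against PWT the pooled ratio was 17.3, with a 95% counting interval from 4.57 to 145.8. S1-03 did not differ from S1-07, at 0.563 and 0.564 CPM.

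BMX encodes a TEC family tyrosine kinase best known from bone marrow and endothelial cells. FS held 1 count in S1-02, 7 in S1-11, 0 in S1-12 and 2 in S2-06, and PWT ranged from 0 to 2.82 CPM with a median of 1.01. PNST fell into separate levels. Counts of 84, 68 and 43, or 23.6, 21.1 and 23.8 CPM, were found in S1-03, S1-04 and S2-07, whereas S1-05, S1-09 and S1-10 held 1, 3 and 2 counts, or 0.575, 0.895 and 0.718 CPM. The latter lay within the range of FS and PWT, below S1-11 at 3.77 CPM.

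**Figure D1:**
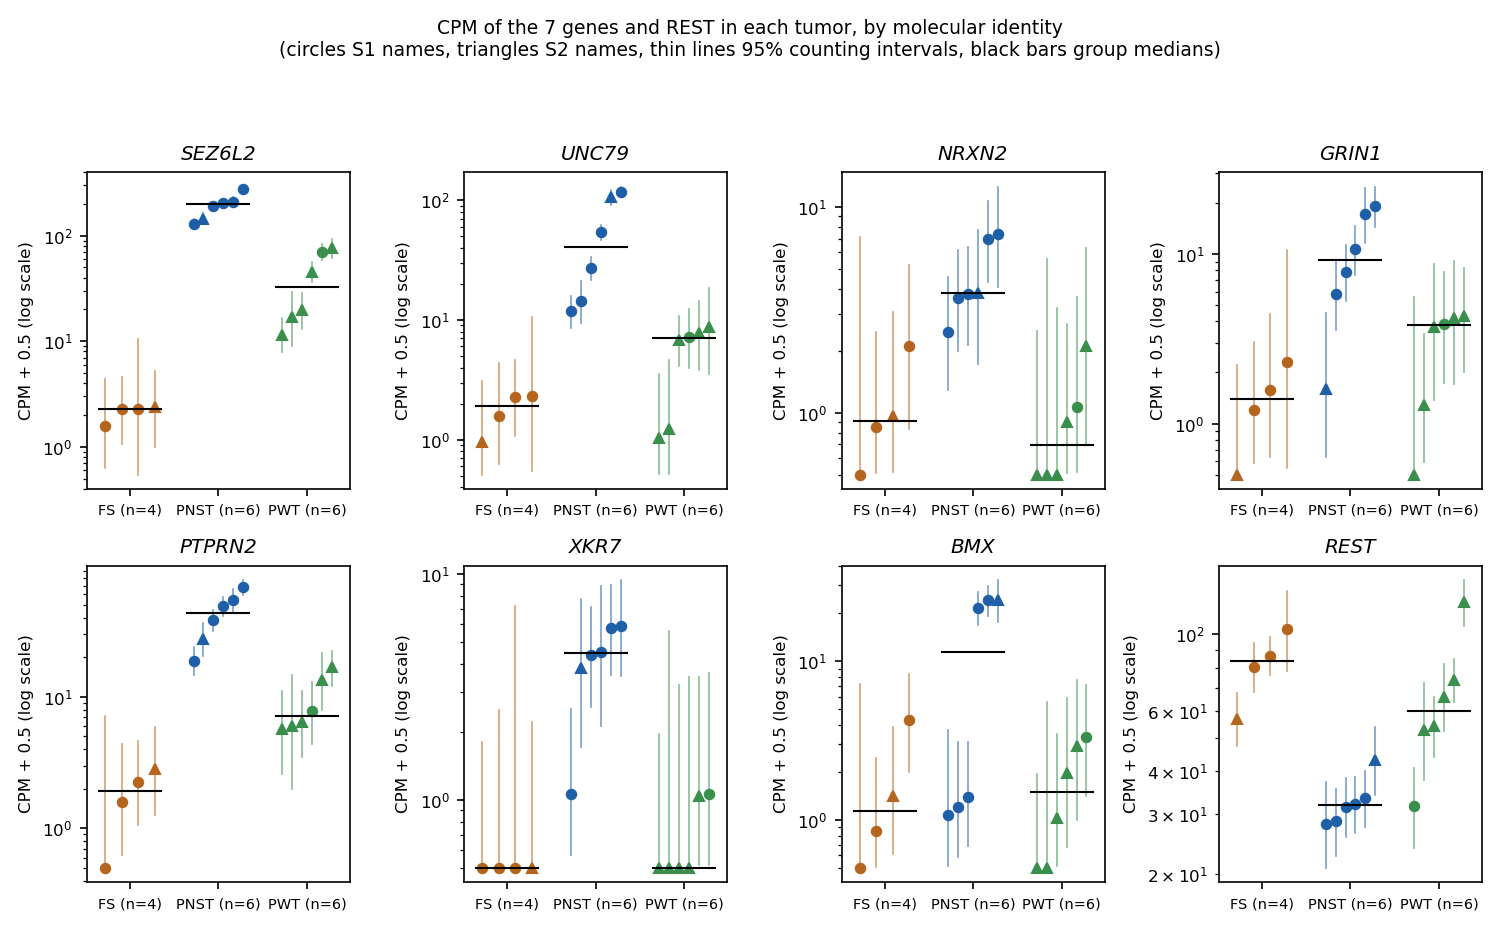
CPM of the 7 genes and REST in each tumor, on log axes after adding 0.5 CPM, with tumors sorted by level within FS (n = 4), PNST (n = 6) and PWT (n = 6), 95% counting intervals as thin lines and group medians as black bars. The values of SEZ6L2 and PTPRN2 do not overlap between the 3 types, though some counting intervals do. GRIN1 overlaps through S2-07, and BMX lies high in 3 PNST and within the other types in the other 3.

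A tumor was taken to carry a gene where its CPM was at least 1.8 times the highest CPM among FS and PWT. By this rule SEZ6L2, NRXN2 and XKR7 were each carried by 5 of 6 PNST, UNC79, GRIN1 and PTPRN2 by 4 and BMX by 3. That made 30 of 42 combinations of gene and tumor. Over all 15408 genes tested, 8 (0.0519%) were carried by at least 4 PNST and 383 (2.49%) by at least 1. The members were chosen for this pattern, so nothing is read from the difference. Just inside the threshold lay SEZ6L2 in S2-07, NRXN2 in S1-04 and GRIN1 in S1-03, at ratios of 1.91, 1.92 and 1.94, and just outside it SEZ6L2 in S1-03, PTPRN2 in S2-07 and UNC79 in S1-05, at 1.71, 1.67 and 1.67.

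Low counts limit several of these calls. The highest other tumor held 3 counts of NRXN2 and 1 count of XKR7, so that the ratio of S1-05 for NRXN2 was 4.26 with a 95% counting interval from 1.15 to 23.6, and that of S1-10 for XKR7 was 9.54 with an interval from 1.47 to 402. Of the 30 carried combinations, 24 had a lower bound above 1 and 15 a lower bound of at least 1.8. In NRXN2 only 2 of the 5 carrying tumors had a lower bound above 1, and in XKR7 3 of 5. With tumors grouped by histology, only 6 of 35 combinations were carried, since S1-10, which carried 6 of the 7 genes, then counted among PWT.

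S1-03 differed most from the other PNST. It carried only GRIN1 and BMX, whereas S1-04, S1-09 and S1-10 carried 6 genes each and S1-05 and S2-07 carried 5. It also had the most counts of all tumors. GRIN1 was the gene missing in S1-04, and GRIN1 and PTPRN2 were missing in S2-07. S1-05 lacked UNC79 and BMX, while S1-09 and S1-10 lacked BMX alone.

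The potassium channel gene KCNH2, also named by the study in a pair, was followed beside the members. It was carried by S1-05, S1-09 and S1-10 (11.8 to 25.7 CPM over the 6 PNST, median 16.9). KCNH2 and BMX were never carried by the same tumor.

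At least 1 gene of a pair was carried in all 6 PNST for 9 of the 21 pairs of members, and in 5 PNST for the other 12. All of the 9 held GRIN1 or BMX, the 2 genes carried by S1-03. BMX covered all 6 PNST together with SEZ6L2, NRXN2, GRIN1, PTPRN2 or XKR7, but not with UNC79, since neither was carried by S1-05. GRIN1 did so with SEZ6L2, UNC79, NRXN2 or XKR7, but not with PTPRN2, since both were missing in S2-07. These 4 pairs rest on GRIN1 in S1-03, with a 95% counting interval of the ratio from 0.819 to 5.29, and at 2-fold only the 5 pairs with BMX named above covered all 6 PNST. Over all pairs of tested genes, 241 of 118695528 (0.000203%) covered all 6, a count that leaves out XKR7 and BMX, which did not pass the filter, and nothing is read from it, since the members were chosen for this.

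**Figure D2:**
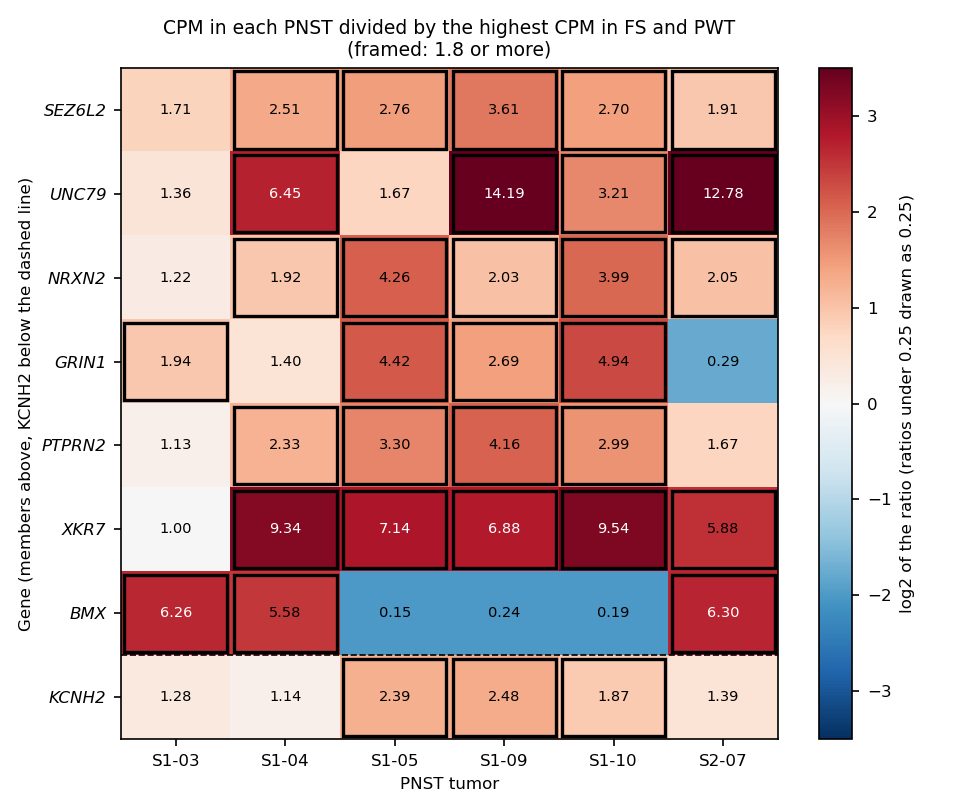
Ratio of the CPM in each PNST (horizontal) to the highest CPM in any FS or PWT for the members and KCNH2 (vertical), colored on a log2 scale, with frames where the ratio was 1.8 or more. S1-03 has 2 frames among the 7 members, against 5 or 6 in each of the other PNST.

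S1-04 and S1-05 are the PNST with identical labels. SEZ6L2 did not differ between them beyond counting error, at 190.6 and 209.3 CPM (ratio 0.911, 95% counting interval 0.799 to 1.04). BMX differed the most, with 68 counts against 1, a ratio of 36.7 with an interval from 6.36 to 1469. With a small offset added to the counts of both tumors, 4 of the 15408 tested genes had a ratio at least as high as BMX. The offset gives a ratio also to genes at 0 in S1-05, such as ANO2 at 9.92 CPM in S1-04. BMX itself was not among the tested genes. UNC79 was 3.86 times as high in S1-04 (interval 2.51 to 6.19), and GRIN1 was lower, at 0.316 times its level in S1-05 (0.163 to 0.595). These intervals cover counting error alone. Keratinocyte markers were high in both tumors, with 7 genes summing to 1016 CPM in S1-04 and 1364 CPM in S1-05, against 10.1 to 101.0 CPM in the other 4 PNST. They were also high in the FS S1-02 (1451 CPM) and S1-12 (884.6 CPM) and the PWT S2-03 (990.3 CPM), so they differ within and between the types compared. Their part in the values of the 7 genes was not tested.

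**Figure D3:**
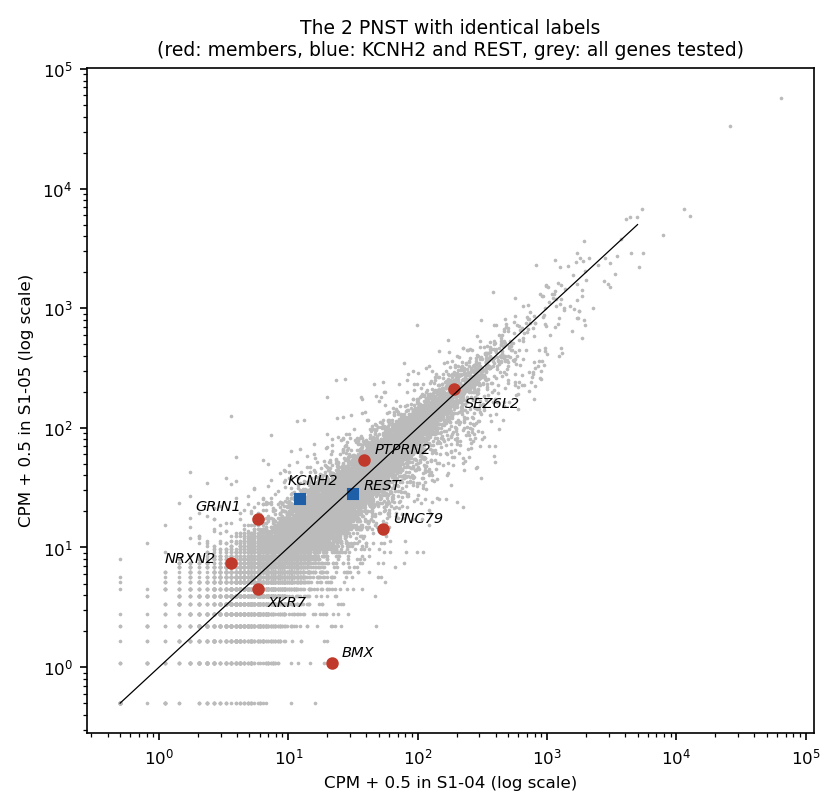
CPM of 15408 tested genes (grey), of the 7 members (red) and of KCNH2 and REST (blue) in S1-04 (horizontal) and S1-05 (vertical), on log axes after adding 0.5 CPM, with a line of equal level. SEZ6L2 and REST lie near the line, whereas BMX and UNC79 lie below it.

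FS and PWT were also compared with each other. The genes were chosen by PNST against both of these types, and not by FS against PWT, except that the study also lists SEZ6L2 as lower in FS, so SEZ6L2 is described here without a test. The quasi-likelihood test of edgeR called 948 genes higher in FS (6.15% of 15408) and 778 lower (5.05%), where calls needed adjusted p below 0.05 and a change of more than 2-fold. The log2 fold change of SEZ6L2 was -4.56 (SE 0.616), with each of 4 FS below each of 6 PWT. Of the 4 other members that passed the filter, PTPRN2 was lower in FS by -2.49 (SE 0.544, edgeR adjusted p = 0.00756). Its values again did not overlap between the groups, though their counting intervals did. UNC79 (-1.94, SE 0.947), GRIN1 (-1.75, SE 0.919) and NRXN2 (0.61, SE 0.913) were not called, with edgeR adjusted p of 0.184, 0.217 and 0.701. All of them met the count filter only through PNST. Among the 10 FS and PWT, 10 counts were reached by 2 tumors for UNC79 and by 0 for GRIN1 and NRXN2. FS and PWT held 5 and 24 counts of GRIN1 and 5 and 4 of NRXN2, so the missing calls say little. XKR7 (-1.04, SE 1.52, DESeq2 adjusted p = 0.716) and BMX (0.19, SE 1.25, DESeq2 adjusted p = 0.947) were below the count filter of edgeR and not called by DESeq2, with 0 against 2 and 10 against 11 counts in FS and PWT.

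Prefix and tumor type were entangled in this comparison, and both directions held within each prefix. Among S1 tumors, SEZ6L2 was at 1.08 to 1.81 CPM in 3 FS and 69.9 CPM in the 1 PWT, and among S2 tumors at 1.86 CPM in the 1 FS and 11.1 to 75.9 CPM in 5 PWT. PTPRN2 was at 0 to 1.76 CPM in FS and 7.33 CPM in PWT among S1 tumors, and at 2.32 CPM against 5.17 to 16.2 CPM among S2 tumors. With the prefix as a term in edgeR, the log2 fold change was -4.85 for SEZ6L2 and -2.49 for PTPRN2 (adjusted p = 0.0267), while that of GRIN1 moved from -1.75 to -3.07 (SE 1.00, adjusted p = 0.081) and was still not called. With tumors grouped by histology, the difference of SEZ6L2 shrank to -2.64 (SE 0.913). That of PTPRN2 did not shrink, at -2.72 (SE 0.672), but its call was lost at an edgeR adjusted p of 0.0764, the highest among all alternatives. The lowest was 0.00147, with DESeq2. KCNH2 (-2.30, SE 0.552, edgeR adjusted p = 0.0127) was also lower in FS. It too met the count filter only through PNST, as 3 of the 10 FS and PWT reached 10 counts.

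**Figure D4:**
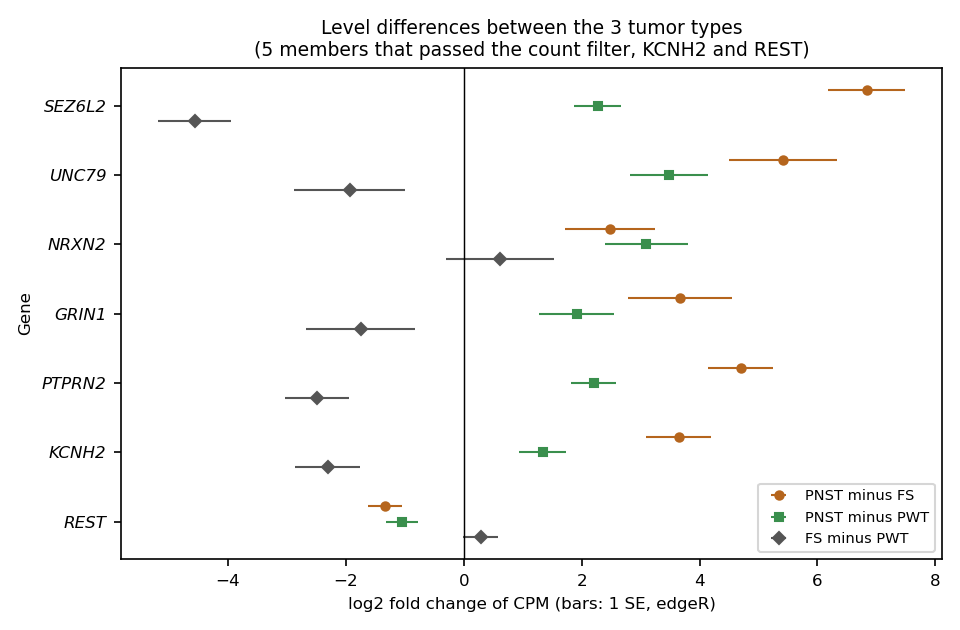
Log2 fold changes of CPM from edgeR for the 5 members that passed the filter, KCNH2 and REST. Circles show PNST minus FS, squares PNST minus PWT and diamonds FS minus PWT. Bars are 1 SE, derived from the F statistic. SEZ6L2 has the largest FS minus PWT difference, -4.56, and NRXN2 the only one among members above 0.

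For PNST against FS and PWT pooled, edgeR called 0 of 15408 genes (0.00%), with 2415 at an unadjusted p under 0.05. DESeq2, which the study used, called 89 of 18846 genes higher (0.472%) and 202 lower (1.07%). With so few calls over all genes, 0 calls in any list below says nothing particular of that list. Members were chosen on this contrast, so only sizes are given: the log2 fold change was 2.97 (SE 0.695) for SEZ6L2, 4.00 (SE 0.621) for UNC79, 2.81 (SE 0.566) for NRXN2, 2.39 (SE 0.609) for GRIN1 and 2.79 (SE 0.491) for PTPRN2. With tumors grouped by histology all of these sizes were smaller, from 1.16 for GRIN1 to 3.36 for UNC79. Pooling sets FS and PWT together although SEZ6L2 and PTPRN2 differed between them. Within the S1 tumors, all 5 PNST were above all 4 others for SEZ6L2, UNC79, NRXN2, GRIN1 and PTPRN2, 4 of 5 were for XKR7 and 2 of 5 for BMX. The 1 PNST with an S2 name was above the 6 other S2 tumors for every member but GRIN1. Since the members were chosen for high levels in these same PNST, these orders are a description and no check on batch. How many of all genes show them was not counted.

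REST, the repressor of neuronal genes, ran the other way, and since the study lists it as lower in PNST this too is a description. It was at 86.0 CPM in S1-02, 79.8 in S1-11, 102.9 in S1-12 and 56.2 in S2-06, at 31.0 to 123.4 CPM in PWT (median 59.4) and at 27.6 to 42.6 CPM in PNST (median 31.3). S1-07 was the only FS or PWT within the PNST range. The log2 fold change of PNST against the other types was -1.17 (SE 0.254). Of its corepressors and cofactors, 9 others were tested and none was called by edgeR or DESeq2 in PNST, with the 10 genes at a median log2 fold change of 0.08, beside -0.06 over all genes tested. RCOR1 was the most abundant of them, and EHMT2 had the smallest p after REST (0.39, SE 0.248). In FS against PWT, SIN3B (0.74, SE 0.219, edgeR adjusted p = 0.0339) and KDM1A (-0.78, SE 0.317) had the smallest p. There 0 of the 10 were called, beside 5.05% of all genes tested lower and 6.15% higher, which says little in a list this short.

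Other genes of the same families were read beside their member. SEZ6 was at a median of 4.75 CPM in FS, 3.96 in PNST and 3.26 in PWT, and SEZ6L was too low to test. NALCN itself was at 0.553 to 3.58 CPM in PNST (median 1.95), 0 to 24.9 in FS (median 1.17) and 0 to 4.84 in PWT (median 0.909). UNC80 was at a median of 0.431 CPM in PNST, 3.86 in FS and 0.651 in PWT, and FAM155A at 0 in all tumors. FAM155B was found mainly in FS, at 2.32 to 15.6 CPM against at most 1.24 CPM elsewhere. Of the NALCN complex only UNC79 passed the filter. Among XK genes, XK, XKR8 and XKRX were tested, and XKR8, the most abundant, was higher in FS than in PWT (log2 fold change 1.73, SE 0.518, edgeR adjusted p = 0.0358). TEC, the most abundant of the TEC kinases, was lower in FS than in PWT (-1.97, SE 0.439, edgeR adjusted p = 0.00863), and BTK was not called.

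Of the neurexins, neuroligins and their partners, 7 of 14 passed the filter. NRXN3 was at 6.63 to 56.0 CPM in PNST, 0 to 15.1 in PWT and 0 to 5.27 in FS, and its log2 fold change in PNST was 1.77 (SE 0.708, edgeR adjusted p = 0.261). LRRTM2, a postsynaptic ligand of neurexins that the study lists as higher in PWT, was lower in FS than in PWT (-1.27, SE 0.343), and the most abundant gene, NLGN2, was not called. Among ionotropic glutamate receptors, 4 of 16 passed, with GRIN2D at -0.40 (SE 0.592) in PNST. GRIA1, the most abundant, was lower in FS than in PWT (-2.72, SE 0.816, edgeR adjusted p = 0.0359), whereas GRIK5 did not pass there (1.53, SE 0.533, edgeR adjusted p = 0.0663) but was called higher in FS by DESeq2 (adjusted p = 0.0423). GRIN2C, below the count filter of edgeR, was at 0.702 to 48.0 CPM in FS and at most 2.42 CPM elsewhere, and was called higher in FS by DESeq2 (3.88, SE 1.06, adjusted p = 0.00446). GRIN2A and GRIN2B, partners of GRIN1 in neuronal NMDA receptors, stayed at or below 6.47 and 1.62 CPM in every tumor, and GRIN2A reached 2.15 CPM at most in PNST.

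Postsynaptic scaffolds gave 10 tested genes of 14, of which 0 were called in PNST by edgeR or DESeq2. In edgeR 4 were at an unadjusted p under 0.05, beside 2415 of all 15408 genes tested. HOMER1 (9.29 to 18.8 CPM in PNST, 11.8 to 23.3 in PWT, 16.2 to 63.1 in FS) and SHANK1 (log2 fold change 1.03, SE 0.362) had the smallest p, DLGAP4 was the most abundant, and HOMER3 was higher in FS than in PWT (1.37, SE 0.344, edgeR adjusted p = 0.0153). Synaptic vesicle release gave 20 tested genes of 24, with a median log2 fold change of 0.12 in PNST. The active zone gene PCLO was at 9.61 to 44.8 CPM in PNST, 4.04 to 9.02 in PWT and 0.929 to 17.2 in FS (1.79, SE 0.448), and was called by DESeq2 (adjusted p = 0.022) and not by edgeR (adjusted p = 0.136). CPLX1 followed (1.59, SE 0.468, edgeR adjusted p = 0.176). In FS against PWT, UNC13A was lower (-3.32, SE 0.671, edgeR adjusted p = 0.00483) and CPLX2 higher (3.00, SE 0.732, edgeR adjusted p = 0.0137), 1 lower and 3 higher in all, beside 5.05% and 6.15% of all genes tested.

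Dense-core vesicle genes, the list of PTPRN2, had 9 of 14 tested, and the 8 other than PTPRN2 had a median log2 fold change of 0.50 in PNST. PTPRN, the nearest relative of PTPRN2, was at 46.98 to 72.2 CPM in PNST (median 66.6), 15.4 to 60.9 in PWT and 4.18 to 20.5 in FS. Its log2 fold change of 1.44 (SE 0.393) was called by DESeq2 (adjusted p = 0.0347) and not by edgeR (adjusted p = 0.159). In FS against PWT, edgeR called 4 of the 9 lower and 0 higher, beside 5.05% and 6.15% of all genes tested, namely PTPRN2, PTPRN, SCG3 and the granin CHGA (-2.23, edgeR adjusted p = 0.00888). PAM was the most abundant.

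Pan-neuronal markers overlapped between PNST and PWT in their summed level. Of 15 genes 9 were tested, 0 were called in PNST against both other types by edgeR, as were 0 of all genes, or by DESeq2, and RBFOX3 had the smallest p (1.05, SE 0.408, edgeR adjusted p = 0.251). Their summed level was 139.8 to 956.3 CPM in PNST (median 309.3), 109.1 to 701.4 in PWT (median 396.1) and 54.2 to 227.9 in FS (median 136.5). MAP2 was the most abundant over all tumors together, but held only 34.6 of the 956.3 CPM in S1-09. NEFL was at 0 in all 6 PNST. In FS against PWT, edgeR called 3 of the 8 genes other than ELAVL3 lower and 0 higher, beside 5.05% and 6.15% of all genes tested, namely TUBB3, NEFH and DCX (-3.31, SE 0.738, edgeR adjusted p = 0.00863). The RNA-binding protein gene ELAVL3 (-5.12, SE 0.658) is listed by the study as lower in FS, like SEZ6L2, and is described without a test. It was nearly absent there, at 0.351 to 2.70 CPM, but its PNST and PWT ranges of 14.4 to 79.0 and 24.1 to 67.7 CPM overlapped.

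Schwann cell markers were checked against the label of the tumors. Their summed level was 258.9 to 733.2 CPM in PNST (median 368.9), 213.4 to 430.2 in PWT (median 326.2) and 141.5 to 328.9 in FS (median 247.8), and PMP22 was the most abundant. Of 15 genes 8 were tested and 0 were called by edgeR or DESeq2, with S100B (2.28, SE 0.752, edgeR adjusted p = 0.205) and L1CAM (1.45, SE 0.534, edgeR adjusted p = 0.23) at the smallest p. SOX10, a defining marker, was low in all types, at 2.30 to 4.77 CPM in PNST, 1.08 to 3.23 in PWT and 1.39 to 7.38 in FS. FOXD3 was at 0 in all 6 PNST, and MAG in 4 of 6.

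Markers of other cells were given the same reading, and edgeR called 0 of them in PNST, as did DESeq2. In FS against PWT, MITF of the melanocyte list was lower (-2.14, SE 0.385, edgeR adjusted p = 0.00267), and ACTA2 (2.68, SE 0.789, edgeR adjusted p = 0.0332) and CNN1 (2.62, SE 0.788, edgeR adjusted p = 0.0365) of the mural and smooth muscle list were higher. None was called by edgeR among 11 tested endothelial genes, 9 myeloid, 3 lymphocyte, 7 keratinocyte, 2 skeletal muscle, 4 adipocyte and 8 reference genes, and with 5.05% of all genes lower and 6.15% higher, 0 calls in lists this short say little. Summed keratinocyte markers had a median of 498.4 CPM in FS and 23.5 CPM in PWT. Skeletal muscle markers summed to 1092 CPM in the FS S1-11, to 452.8 CPM in the PWT S1-07 and to 112.2 CPM in the PWT S2-09. All other tumors were at 3.95 to 52.9 CPM. The part of these cells in the values compared was not tested. Endothelial markers, the cells in which BMX is best known, summed to 304.5 CPM in S1-03, 679.6 in S1-04 and 397.4 in S2-07, the PNST that carried BMX, and to 552.5 in S1-05, 184.0 in S1-09 and 413.7 in S1-10. These ranges overlapped, and VWF was the most abundant gene. The part of these cells in the BMX level was not tested.

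Co-variation over the 16 tumors is a description, since the genes share the tumors, their depth and their selection for a high level in PNST. Pearson's r of log2 CPM, with a prior count of 2, ranged from 0.159 to 0.915 over the 21 pairs of members, with a median of 0.706. SEZ6L2 and PTPRN2 gave the highest value (r = 0.915, Spearman's rho = 0.944). The 6 pairs with BMX were at 0.159 to 0.460 and the 15 without it at 0.449 to 0.915. After each type's mean was removed, which leaves the spread within types, the 21 pairs had a median r of 0.182, from -0.472 to 0.606.

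Within types, NRXN2 and PTPRN2 gave the highest r (0.606, rho = 0.676, n = 16, and 0.653 without the 2 tumors farthest from the median of NRXN2, the first gene named, as for each pair below). SEZ6L2 and GRIN1 were at 0.498 (rho = 0.515, and 0.469 without 2 tumors), and SEZ6L2 and XKR7 at 0.418 (rho = 0.538, and 0.587 without 2). SEZ6L2 and PTPRN2 fell to 0.182 (rho = 0.332, and 0.422 without 2 tumors). UNC79 and GRIN1 gave the lowest, -0.472 (rho = -0.441, and -0.500 without 2 tumors), which matches S2-07 with high UNC79 and low GRIN1 and S1-05 with the reverse. PTPRN2 and BMX were at -0.401 (rho = -0.434, and -0.452 without 2 tumors). GRIN1 and KCNH2 were at 0.543 (rho = 0.426, and 0.335 without 2), and SEZ6L2 and KCNH2 at 0.538 (rho = 0.515, and 0.537 without 2). With counts as low as those of NRXN2 and XKR7, weak values say little.

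**Figure D5:**
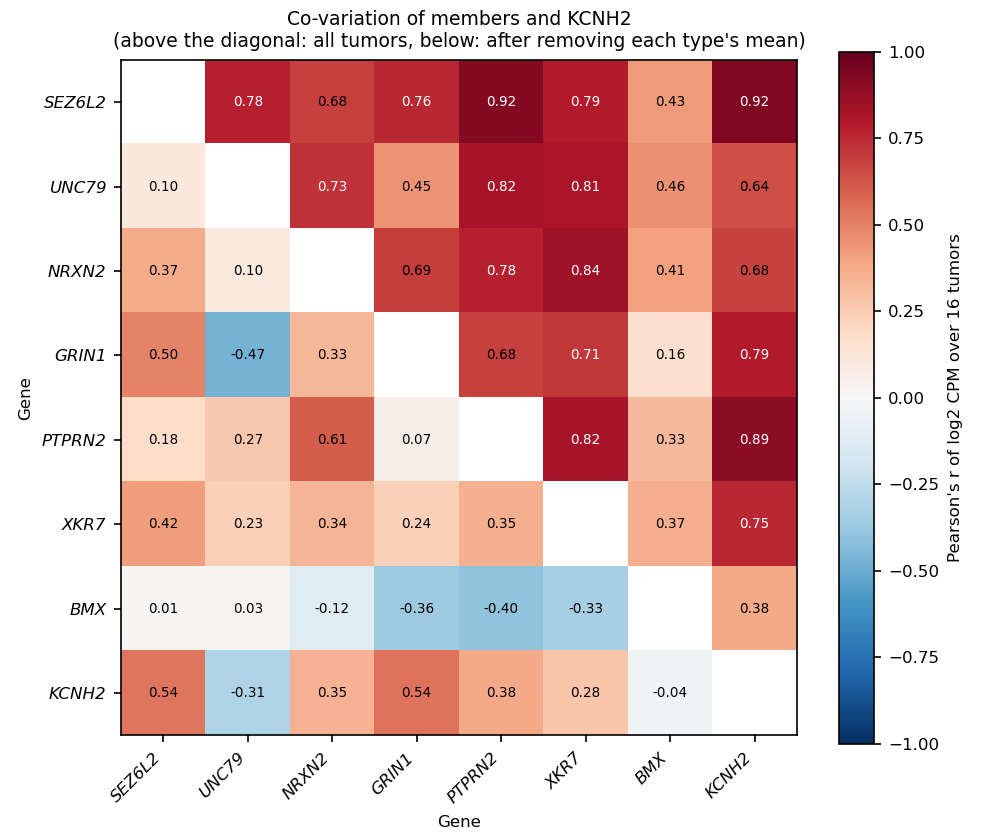
Pearson's r of log2 CPM over 16 tumors for each pair among the members and KCNH2, over all tumors above the diagonal and after removing each type's mean below it. Above the diagonal all values are positive, up to 0.922 for SEZ6L2 and KCNH2, and below it they lie on both sides of 0.

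The tested genes with the most similar levels over the 16 tumors differed between members. MAST1 (r = 0.952, rho = 0.938), SCRT1 (0.946, 0.929) and CACNG7 (0.944, 0.871) were nearest to SEZ6L2. SCRT1 (r = 0.922, rho = 0.917), CELF5 (0.920, 0.910) and SEZ6L2 itself (0.915, 0.944) were nearest to PTPRN2, so that SCRT1 was shared by both. UNC79 was nearest to WFDC3 (r = 0.867, rho = 0.838) and F2R (0.840, 0.915), and XKR7 to LOC474642 (0.900, 0.773), WFDC3 (0.872, 0.844) and CHRNB2 (0.852, 0.878). PI4KA (r = 0.856, rho = 0.809), TRIP10 (0.823, 0.794) and FXYD1 (0.821, 0.825) were nearest to NRXN2. For GRIN1 they were TCEA2 (r = 0.926, rho = 0.932), TBC1D17 (0.885, 0.902) and PLCB3 (0.884, 0.935), and these kept an r of 0.811 to 0.874 within types. BMX had LOC100688933 (r = 0.810, rho = 0.705), TBC1D2B (0.765, 0.519) and SHISA9 (0.726, 0.572), with an r of 0.667 to 0.801 within types. For SEZ6L2 and PTPRN2, the r of these genes within types fell to between 0.182 and 0.662.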

How the data were processed

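The authors deposited raw read counts per gene, made with STAR alignment to the ROS-canfam-01 assembly and HTSeq counting. Whether reads were counted by strand is not given in the sources used here, so overlapping and antisense genes are uncertain. The 9 tumors with S1 names had 3 runs each, which were summed, and lines naming no gene were left out, with 22.9% to 30.6% of listed reads on genes. Over 51 combinations of gene and S1 tumor with at least 15 counts, the runs differed by a median chi-square per degree of freedom of 0.792. The highest was 5.65, and 4 of the 51 had a chi-square p under 0.05. Among these were PTPRN2 in S1-04 and S1-09 and KCNH2 in S1-10. The members and gene lists were chosen with earlier results of these data known. Genes reaching 10 counts in 4 or more tumors were tested with edgeR 4.0.16 (TMM, quasi-likelihood F test, Benjamini-Hochberg adjustment, no covariate), and DESeq2 1.42.0 was the alternative. The contrast of PNST with FS and PWT pooled was fitted on these 2 groups, and FS with PWT on all 3 types. The SE given with edgeR values was derived as the absolute log2 fold change over the square root of the F statistic. P-values measure the spread between tumors, each counted as 1 sample although S1-04 and S1-05 may share a dog. Named besides the members were KCNH2, REST, family genes, and of each list the 2 genes with the smallest p in each contrast and the most abundant, of which a selection is printed, and up to 3 genes nearest to each member by r. The most abundant gene of a list was set over all tumors together and need not be the highest in each tumor. Counting intervals (95%, exact) and floors of 3 counts cover counting error only. The scripts were tested on simulated data. Each tumor, the normalization, the filter, the grouping, the prefix and the depth were varied as alternatives. No sequences or coordinates were used here.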

Additional observations from a re-analysis of the deposited data

Results flagged for a closer look

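In 33 combinations of gene and tumor type, 3 held a tumor that lay far from the others of its type, measured as its gap to the nearest other over the range of the type. Chance alone gives this in about 1 in 20 groups. SEZ6L2 in the FS S1-11 was at 1.08 CPM from 2 counts, below the other 3 FS at 1.76 to 1.86 CPM, a gap within counting error (95% interval 0.131 to 3.90 CPM). NRXN2 in the PWT S2-09 was at 1.61 CPM, also from 2 counts, with the other 5 PWT at 0 to 0.564 CPM. REST in the PNST S2-07 was at 42.6 CPM from 77 counts, above the other 5 PNST at 27.6 to 32.8 CPM, and S2-07 was the 1 PNST with an S2 name and the one with the lowest GRIN1. The cause of these values was not tested.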

How the results depend on the processing

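No paired analysis was possible because replicate numbers are in accession order and no labels pair tumors of different types. For PNST against the other types pooled, the 0 DEGs of edgeR became 2 with no filter on low counts (UNC79 and PTPRN2) and 291 with DESeq2. Leaving out 1 tumor gave 0 to 3, with 1 without S1-03 (UNC79), 1 without S1-04 (LOC119867575), 1 without S1-05 (UNC79) and 3 without S1-07 (ATAD2, FOXRED2 and UNC79). These genes were named after their values were seen, and UNC79 and PTPRN2 were chosen on this contrast. The 1726 DEGs of FS against PWT became 895 with the prefix as a term, 774 of them shared, 5 with groups by histology and 1096 with all tumors thinned to 507728 counts, an alternative added after seeing the data. The 5 by histology were CNPY2, LOC119872409, MAST2, PTK7 and ZBTB47. No gene named above as called by edgeR in FS against PWT was among them. Leaving out 1 tumor gave 1062 to 1898, with 1062 without S1-11. The 30 carried combinations became 6 of 35 by histology, 27 at 2-fold, 33 at 1.5-fold, 26 after thinning and 24 to 31 without 1 tumor, where leaving out a PNST removes its own. The PNST differences of single members moved by more than their SE in 6 cases, 5 of them with groups by histology (SEZ6L2 2.19, UNC79 3.36, NRXN2 1.54, GRIN1 1.16 and PTPRN2 1.99) and PTPRN2 with the prefix term (3.35). In FS against PWT, PTPRN2 lost its call by histology (-2.72), and SEZ6L2, described without a test, shrank to -2.64. Differences that were not called also moved by more than their SE, GRIN1 to -3.07 with the prefix term, UNC79 to -3.10 and NRXN2 to -1.58 by histology, and NRXN2 ranged up to 1.33. The sign of NRXN2 also turned without S1-11, at -0.245. NRXN2, and GRIN1 after thinning, gave no value where they failed the filter. The cause of these changes was not tested. XKR7 and BMX were below the count filter of edgeR, and 3 counts in S1-12, the shallowest tumor, already equal 5.42 CPM.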
